A study of Mus musculus with 9 samples.

Results

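Polycomb repressive complex 1 (PRC1) is the complex that ubiquitinates histone H2A, and 10 genes of its catalytic core and its variant-specific subunits are described here. They are the rows of the count table named Pcgf2 and Bmi1, the canonical PCGF subunits, Pcgf1, Pcgf3, Pcgf5 and Pcgf6, the variant PCGF subunits, Kdm2b and Rybp, subunits of variant complexes, and Ring1 and Rnf2, the ligases that all PRC1 forms share. All 10 were found among the 45361 genes of the table, and all 10 passed the filter on low counts. The libraries are bulk poly(A) RNA-seq of CH12F3, an established mouse B-lymphoma line that switches from IgM to IgA in culture. All cells carried a knockout of Ligase4, the ligase of classical end joining, and all had been stimulated for 24 h with anti-CD40, IL-4 and TGF-Beta. There were 3 libraries with the vehicle DMSO, 3 with tazemetostat, an EZH2 inhibitor, and 3 in which cells received valemetostat, which blocks EZH1 as well as EZH2. The stated purpose was to see which transcripts alter after either compound. The labels give neither the doses nor whether the knockout line is 1 clone.

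PRC1 and PRC2 are the main Polycomb complexes. PRC2, through EZH1 or EZH2, methylates histone H3, and PRC1 adds ubiquitin to histone H2A. Each PRC1 pairs RING1 or RNF2 with a PCGF protein. Canonical PRC1, with PCGF2 or BMI1, also holds CBX and PHC proteins, and its CBX subunit reads the mark that PRC2 writes. Variant PRC1 holds RYBP or its paralog YAF2 in place of CBX, and most of its forms reach chromatin without that mark, PRC1.1 through the CpG-binding protein KDM2B and PRC1.6 through MGA, E2F6 and L3MBTL2. PRC1.3 and PRC1.5 are built on PCGF3 and PCGF5. BMI1 was first known as a partner of MYC in B cell lymphoma.

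Promoter windows of 3 PCGF genes are shown, those of Bmi1 and Pcgf5 with that of Pcgf2, the paralog of Bmi1, because Bmi1 and Pcgf5 were the members that rose most with both compounds. RefSeq windows on GRCm38.p6 were matched by symbol for 8 of the 10 members, and the 250 bases before each start site are printed. Capitals mark the motif CACGTG, the site read by MYC, MAX and MGA, and GCGGGAA or its reverse complement TTCCCGC, a core of E2F sites. Both strands were searched, and the motifs do not overlap each other here. Pcgf5 has 3 annotated start sites, of which the first and the last are shown because both lie in CpG-rich sequence.
Bmi1, chr2:18676768-18677017, + strand: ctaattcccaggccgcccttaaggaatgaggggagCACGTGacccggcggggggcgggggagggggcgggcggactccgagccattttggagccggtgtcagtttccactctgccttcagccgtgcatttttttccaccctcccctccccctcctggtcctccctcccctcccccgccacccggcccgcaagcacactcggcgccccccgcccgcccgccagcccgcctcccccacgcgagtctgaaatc
Pcgf2, chr11:97699649-97699898, - strand: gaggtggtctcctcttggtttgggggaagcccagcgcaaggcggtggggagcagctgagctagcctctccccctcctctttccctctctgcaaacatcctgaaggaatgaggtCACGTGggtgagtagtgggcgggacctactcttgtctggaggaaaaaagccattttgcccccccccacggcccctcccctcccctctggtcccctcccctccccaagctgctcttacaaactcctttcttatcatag
Pcgf5 first start, chr19:36348079-36348328, + strand: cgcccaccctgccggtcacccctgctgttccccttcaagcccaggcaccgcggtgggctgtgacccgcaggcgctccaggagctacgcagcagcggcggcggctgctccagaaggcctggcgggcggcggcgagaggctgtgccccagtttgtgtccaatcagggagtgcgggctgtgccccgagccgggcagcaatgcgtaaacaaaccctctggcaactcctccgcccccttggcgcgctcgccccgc
Pcgf5 last start, chr19:36409498-36409747, + strand: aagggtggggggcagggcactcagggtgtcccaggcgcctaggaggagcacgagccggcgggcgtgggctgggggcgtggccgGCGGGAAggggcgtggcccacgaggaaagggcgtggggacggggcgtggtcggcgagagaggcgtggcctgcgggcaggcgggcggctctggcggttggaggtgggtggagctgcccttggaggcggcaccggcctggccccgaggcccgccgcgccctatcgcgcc
CACGTG was found once in the Bmi1 window and once in the Pcgf2 window, and in 6.02% of 32851 windows of this length over all genes. GCGGGAA was found once in the last Pcgf5 window and in 3.82% of all windows. The Bmi1 window held 21 CpG dinucleotides, the first and last Pcgf5 windows 23 and 28, and the Pcgf2 window 5, against a median of 6 over all windows. Binding was not measured in these libraries, and a match is a description of the sequence.

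Library totals ran from 34080504 to 46675110 counts, so that the floor of 3 counts lies at 0.0643 to 0.088 CPM (counts scaled to the library total), far under every member. The lowest member count was 194, for Pcgf5 in DMSO 3. The B cell markers fixed for this check were all present, with a summed TPM (a level scaled to transcript length and library) of 1019 to 1051 in DMSO, 1061 to 1097 with tazemetostat and 1099 to 1118 with valemetostat. Summed T cell markers were at 1.56 to 8.95 TPM and stromal, endothelial and epithelial markers at 0.45 to 1.57 TPM over all libraries, with Col1a2 listed at 0. Myeloid markers were lower in all 6 inhibitor libraries, at 11.1 to 12.6 TPM in DMSO, 9.38 to 9.91 TPM with tazemetostat and 8.7 to 10.05 TPM with valemetostat, with Cd14 listed at 0. Erythroid markers, 3 of 4 of which were in the table, went from 10.3 to 11.4 TPM in DMSO to 15.8 to 18.5 TPM with the inhibitors. The part of these differences in the results was not tested. In bulk RNA, fewer cells of a type and less RNA per cell cannot be told apart. Whether the replicates were grown as separate cultures is not in the labels, so p-values measure only library-to-library spread, which may be technical.

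The plot of TPM by library shows the members' levels. TPM is per length, so genes can be set side by side as far as the transcript lengths used hold, which was not tested. Kdm2b was highest at 80.5 ± 12.2 TPM (SD, n = 3 here and below), followed by the ligase Rnf2 at 54.3 ± 6.93 TPM. Among PCGF genes the variant subunit Pcgf6 and the canonical subunit Bmi1 led, at 38.4 ± 2.27 and 35.6 ± 0.576 TPM. Rybp was at 31.5 ± 2.73 TPM. Ring1 (19.2 ± 1.26 TPM), Pcgf1 (17.8 ± 1.57 TPM) and Pcgf2 (14.8 ± 1.61 TPM) followed, and each of these overlapped the next over the 3 libraries. Pcgf3 was at 9.0 ± 1.11 TPM and Pcgf5 was lowest at 4.05 ± 0.943 TPM. No other neighbours in this order overlapped. With either inhibitor Bmi1 stood at rank 3, above Pcgf6 and overlapping Rnf2, and Pcgf5 stood above Pcgf3 without overlap. Pcgf1 stood above Ring1 with either. Rybp was above Pcgf6 with tazemetostat (33.9 ± 1.83 against 28.7 ± 0.515 TPM) and overlapped it with valemetostat (29.1 ± 1.95 against 29.8 ± 1.33 TPM).

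**Figure D1:**
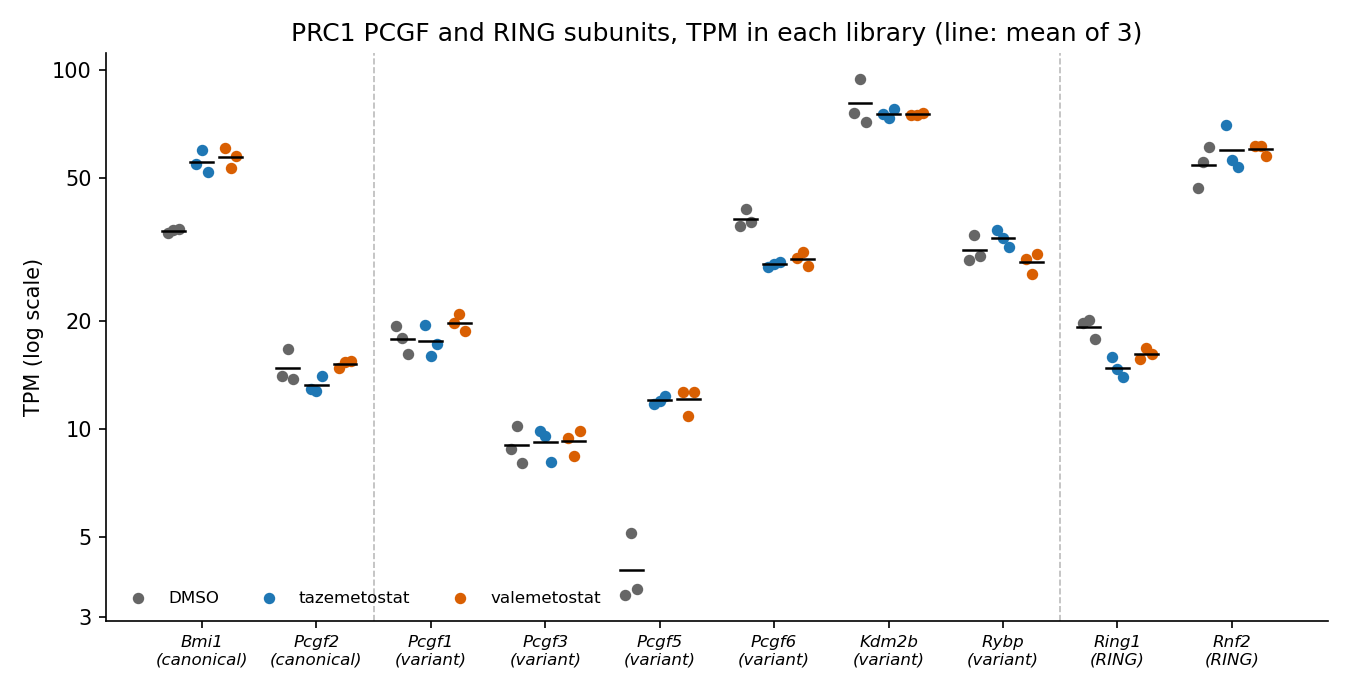
TPM of the 10 PRC1 genes in each library on a log axis, grouped as canonical, variant and RING subunits; points are libraries and lines are means of 3. Pcgf5 and Bmi1 are higher and Pcgf6 and Ring1 lower in all 6 inhibitor libraries than in all 3 DMSO libraries. Over all genes, 47.4% with tazemetostat and 48.5% with valemetostat did not overlap DMSO in CPM. The share in TPM, or with both compounds at once, was not taken.

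Tazemetostat changed 6 of the 10 members, 4 higher and 2 lower, and valemetostat changed 5, 3 higher and 2 lower, by edgeR's quasi-likelihood test at a Benjamini-Hochberg adjusted p under 0.05. The background over all 12580 genes was 38.1% called for tazemetostat, split into 19.9% higher and 18.2% lower. For valemetostat it was 39.2%, split into 20.5% higher and 18.7% lower. With only 10 genes, nothing particular to the members is read from these counts. Their median log2 change was 0.03 with either compound, against 0.001 and 0.007 over all genes. Canonical and variant subunits both split. Of the 2 canonical members 1 rose with each compound and the other did not pass. Among the 6 variant members tazemetostat gave 2 higher and 1 lower, and valemetostat gave 1 higher and 2 lower. For the mean of both inhibitors 3 members were higher and 2 lower, against 44.2% called over all genes, 22.7% higher and 21.5% lower. In CPM, libraries did not overlap DMSO for 47.4% of all genes with tazemetostat and for 48.5% with valemetostat. Separation of a member's libraries, given below, is therefore not read as particular to it.

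**Figure D2:**
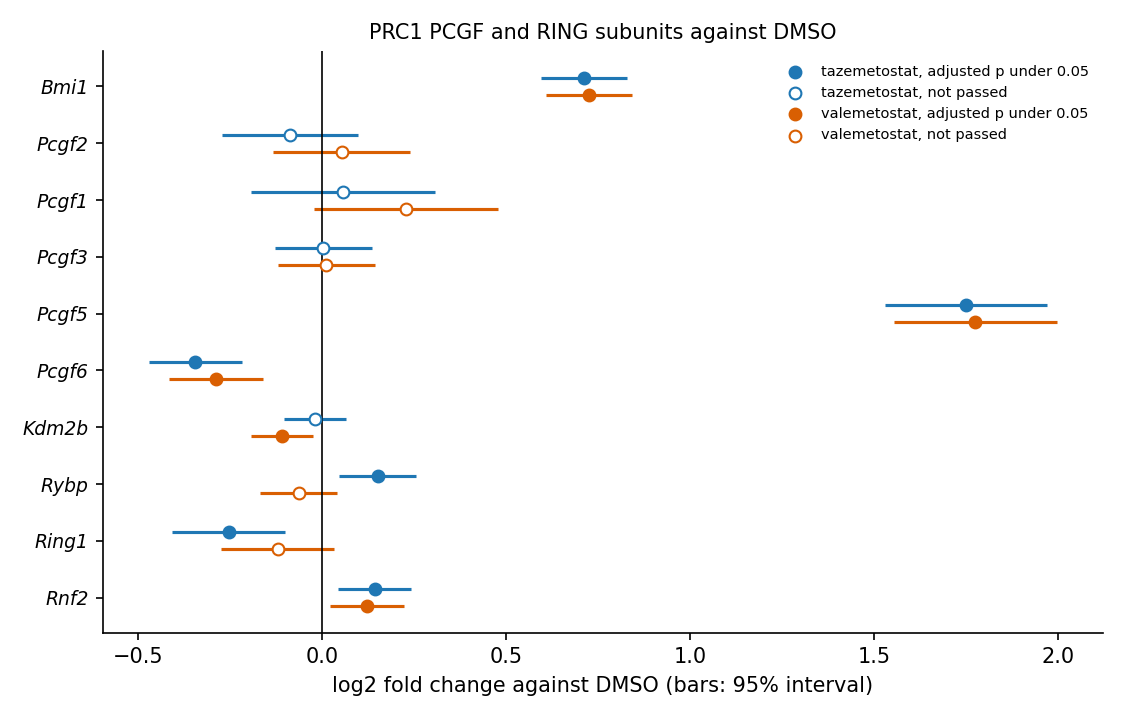
Log2 fold change of each PRC1 gene against DMSO with its 95% interval for tazemetostat and valemetostat; filled points passed the edgeR test and open points did not. Only Pcgf5 lies beyond a log2 change of 1, at 1.75 and 1.78, and Bmi1 is next at 0.71 and 0.73.

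Pcgf5, whose product activates RNF2 in PRC1.5, had the largest change of the members. It had 5.80, 7.25 and 5.44 CPM in DMSO 1 to 3, 21.5, 20.7 and 19.8 CPM with tazemetostat and 22.8, 19.3 and 21.0 CPM with valemetostat. The lowest inhibitor library was above the highest DMSO library by more than the whole range within any group. The log2 change was 1.75 ± 0.11 (SE) with tazemetostat and 1.78 ± 0.11 with valemetostat, or 3.36-fold and 3.42-fold (edgeR adjusted p = 1.34e-12 and 1.13e-12). Among all genes tested 5.53% rose at least 2-fold with tazemetostat and 5.37% with valemetostat, and Pcgf5 was the 1 member among them. Per transcript length it went from 4.05 ± 0.943 TPM to 12.0 ± 0.323 and 12.1 ± 1.05 TPM. Pcgf5 overlaps the exons of F530104D19Rik on the opposite strand in GENCODE M21. No single row of the count table was matched to the symbol F530104D19Rik, so no level of it is given here. No source used here says whether the counting used strand, so reads of that pair cannot be told apart.

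Pcgf3, the closest paralog of Pcgf5, overlaps with it in function. Its levels were 44.8, 48.2 and 42.9 CPM in DMSO, 44.0, 48.3 and 43.9 CPM with tazemetostat and 45.8, 44.0 and 47.2 CPM with valemetostat. The groups overlapped throughout, and the log2 differences of 0.00 ± 0.06 and 0.01 ± 0.06 did not pass (edgeR adjusted p = 0.972 and 0.9). Their 95% intervals ran from -0.13 to 0.14 and from -0.12 to 0.15. With an offset for transcript length and GC content Pcgf3 was called higher with valemetostat, at 0.15 (edgeR adjusted p = 0.035). The log2 ratio of Pcgf5 to Pcgf3 TPM was -1.35, -0.99 and -1.17 in DMSO 1 to 3, 0.25, 0.32 and 0.61 with tazemetostat and 0.43, 0.37 and 0.36 with valemetostat. Pcgf5 was thus the lower of the pair in all 3 DMSO libraries and the higher in all 6 inhibitor libraries. The mean log2 ratio rose by 1.56 between DMSO and inhibitor libraries.

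Bmi1 was the canonical PCGF subunit that rose. Its levels were 63.2, 73.1 and 71.1 CPM in DMSO, 111, 113 and 116 CPM with tazemetostat and 120, 115 and 107 CPM with valemetostat. No inhibitor library overlapped a DMSO library, which in CPM held for 47.4% of all genes with tazemetostat and 48.5% with valemetostat. The log2 change was 0.71 ± 0.06 and 0.73 ± 0.06, or 1.64-fold and 1.66-fold (edgeR adjusted p = 2.10e-10 and 1.52e-10). Per length it went from 35.6 ± 0.576 TPM to 55.4 ± 3.98 and 57.1 ± 3.65 TPM. Commd3, a COMM domain gene, lies just upstream of Bmi1 on the same strand in GENCODE M21, and was looked at for that reason after the values of Bmi1 were seen. It had 29.2, 31.1 and 31 CPM in DMSO, 37.2, 40.1 and 39.1 CPM with tazemetostat and 42.3, 44.5 and 44.3 CPM with valemetostat. Commd3 rose by 0.35 and 0.52 on the log2 scale (edgeR adjusted p = 0.000105 and 4.01e-07). Transcripts that run from Commd3 into Bmi1 were not tested for.

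Pcgf2, the other canonical PCGF subunit and also known as MEL18, did not pass the test. It had 16.0, 17.2 and 15 CPM in DMSO, 15, 14.3 and 16.0 CPM with tazemetostat and 16.5, 16.7 and 16.7 CPM with valemetostat. These ranges overlapped, with log2 differences of -0.09 ± 0.09 and 0.05 ± 0.09 (edgeR adjusted p = 0.475 and 0.675). The 95% intervals, -0.27 to 0.10 and -0.13 to 0.24, do not include the change seen in Bmi1. The ratio of Bmi1 to Pcgf2 TPM was 2.50, 2.15 and 2.63 in DMSO, 4.24, 4.69 and 3.69 with tazemetostat and 4.09, 3.46 and 3.74 with valemetostat. Bmi1 was the higher of the pair in all 9 libraries, and the log2 ratio rose by 0.71 between DMSO and inhibitor libraries.

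Pcgf6, the PCGF subunit of PRC1.6, fell with both compounds. It had 54.9, 59.2 and 57.5 CPM in DMSO, 43.6, 44.4 and 47.2 CPM with tazemetostat and 46.4, 49.6 and 44.5 CPM with valemetostat. All 6 inhibitor libraries were below all DMSO libraries. The log2 change was -0.34 ± 0.06 and -0.29 ± 0.06 (edgeR adjusted p = 7.75e-05 and 0.000547). Per length Pcgf6 went from 38.4 ± 2.27 TPM to 28.7 ± 0.515 and 29.8 ± 1.33 TPM. Pcgf1, the PCGF subunit of PRC1.1, is a short gene with a low level of 7.91 to 9.03 CPM in DMSO, 7.90 to 9.65 CPM with tazemetostat and 9.31 to 11 CPM with valemetostat. Its log2 differences of 0.06 ± 0.12 and 0.23 ± 0.12 did not pass (edgeR adjusted p = 0.748 and 0.144), although the valemetostat libraries lay above the DMSO libraries in CPM. Groups did not overlap in this way for 48.5% of all genes with valemetostat and for 47.4% with tazemetostat.

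Summed over the 6 PCGF genes, TPM went from 119.6 ± 6.12 in DMSO to 136 ± 3.02 with tazemetostat and 143 ± 3.68 with valemetostat, given as values with no test. Bmi1 and Pcgf2 made up 41.8, 41.4 and 43.3% of that sum in DMSO 1 to 3. They made up 49.4, 52.2 and 49.6% after tazemetostat and 51.2, 49.1 and 51.2% after valemetostat. The share of Bmi1 and Pcgf2 was therefore under that of the other PCGF genes in every DMSO library and close to it in the inhibitor libraries. Bmi1 alone went from 29.8 ± 1.55% to 40.7 ± 2.11 and 39.9 ± 1.59%. Pcgf6 went from 32.1 ± 0.722% to 21.1 ± 0.754 and 20.8 ± 1.22%, and Pcgf5 from 3.37 ± 0.604% to 8.82 ± 0.418 and 8.43 ± 0.580%. The log2 ratio of canonical to variant PCGF TPM went from -0.46 ± 0.06 in DMSO to 0.02 ± 0.09 and 0.03 ± 0.07. The difference of 0.48 between DMSO and inhibitor libraries was 0.67 where Pcgf5 was left out of the variant sum. These shares are of RNA, and protein was not measured. Canonical and variant are classes of genes here, and which complexes their products joined was not measured.

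**Figure D3:**
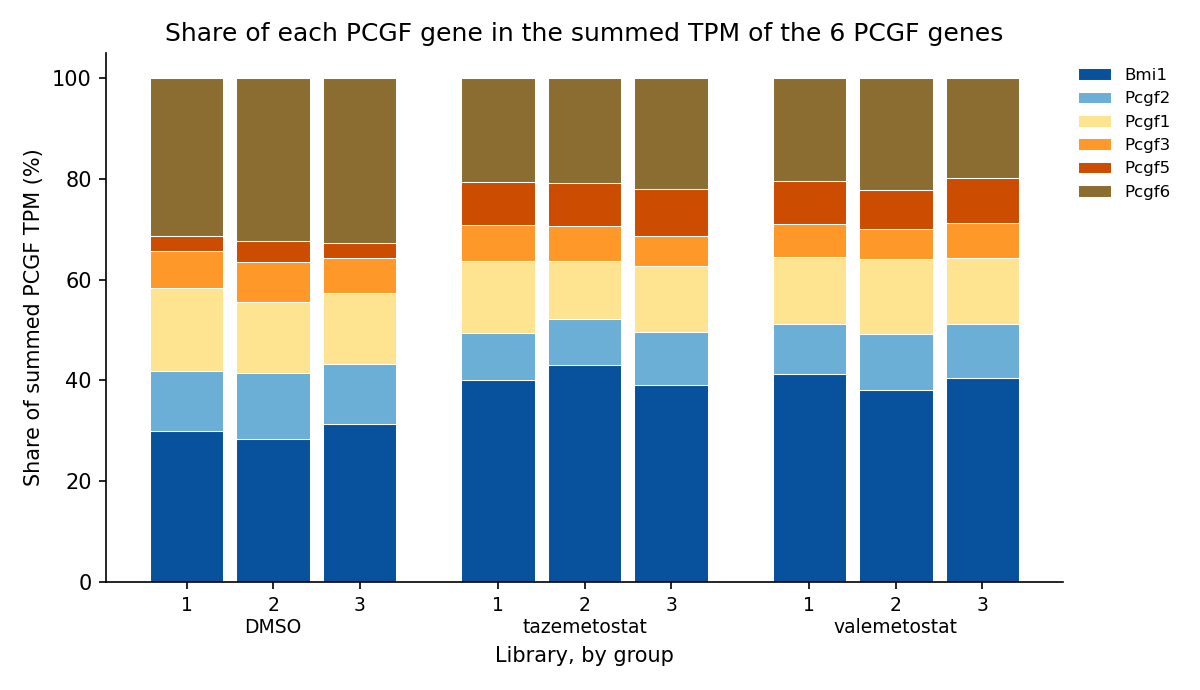
Share of each PCGF gene in the summed TPM of the 6 PCGF genes, 1 bar per library, with the canonical genes Bmi1 and Pcgf2 in blue at the bottom. The blue part ends at 41.4 to 43.3% in DMSO and at 49.1 to 52.2% in the inhibitor libraries.

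Kdm2b, the CpG-binding demethylase that anchors PRC1.1, had 210, 217 and 215 CPM in DMSO, 209, 213 and 212 CPM with tazemetostat and 200, 196 and 199 CPM with valemetostat. Tazemetostat libraries overlapped DMSO libraries and valemetostat libraries lay below them. The log2 difference was -0.02 ± 0.04 with tazemetostat, which did not pass (edgeR adjusted p = 0.764), and -0.11 ± 0.04 with valemetostat, which did (0.0373). Per length the groups overlapped, at 80.5 ± 12.2, 75.2 ± 2.14 and 75.1 ± 0.526 TPM, with DMSO 2 standing high at 94.3 TPM. The valemetostat call was lost in 13 of 18 alternative settings, among them the length and GC offset, the log2(TPM + 1) (limma-trend adjusted p = 0.472) and leaving out any of 7 single libraries (edgeR adjusted p between 0.058 and 0.147). Those were DMSO 2 and 3, tazemetostat 1 and 2 and each valemetostat library. Kdm2b shares exon sequence with Rnf34, on the opposite strand, and 2 further genes in GENCODE M21. Rnf34 fell with both compounds, at -0.24 and -0.30 (edgeR adjusted p = 0.00262 and 0.000341), and its part in the Kdm2b counts was not tested.

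Rybp, which binds the RING subunit in place of CBX, had 98.4, 109 and 104 CPM in DMSO, 117, 115 and 113 CPM with tazemetostat and 103, 94.3 and 99.9 CPM with valemetostat. The tazemetostat libraries lay above the DMSO libraries and the valemetostat libraries overlapped them. Rybp rose by 0.15 ± 0.05 on the log2 scale with tazemetostat (edgeR adjusted p = 0.0194). Its valemetostat value of -0.06 ± 0.05 did not pass (edgeR adjusted p = 0.349). The tazemetostat call did not hold when DMSO 1 was left out (edgeR adjusted p = 0.112), nor without tazemetostat 1 (0.0767) or tazemetostat 2 (0.0542), with library totals (0.0566) and on log2(TPM + 1) (limma-trend adjusted p = 0.35). The processed copy Rybp-ps had 0 to 4 counts in each library.

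Rnf2, or RING1B, the ligase at the higher level, had 90.7, 95.6 and 96.3 CPM in DMSO, 108, 104 and 100 CPM with tazemetostat and 104, 101 and 103 CPM with valemetostat. No inhibitor library overlapped DMSO in CPM, against 47.4% of all genes with tazemetostat and 48.5% with valemetostat that did not overlap. Rnf2 rose by 0.14 ± 0.05 and 0.12 ± 0.05 on the log2 scale (edgeR adjusted p = 0.0216 and 0.0486). In TPM the groups did overlap, at 54.3 ± 6.93, 59.9 ± 8.97 and 60.0 ± 2.24, and neither call held in limma-trend on log2(TPM + 1) values (adjusted p = 0.393 and 0.345, limma-trend) or with library totals (edgeR adjusted p = 0.0615 and 0.09). With tazemetostat the call was also lost without DMSO 1 (edgeR adjusted p = 0.102), tazemetostat 1 (0.117) or tazemetostat 2 (0.0559). With valemetostat it was lost in 13 of 18 settings, including 7 that each left out 1 library. These were DMSO 1 and 2, tazemetostat 1 and 2 and each valemetostat library, with edgeR adjusted p from 0.0522 to 0.17. Trmt1l shares exon sequence with Rnf2 on the other strand and was at -0.08 and -0.10, which did not pass (edgeR adjusted p = 0.412 and 0.29).

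Ring1, or RING1A, the ligase at the lower level, had 26.3, 25.8 and 25.4 CPM in DMSO, 22.8, 21.2 and 21.0 CPM with tazemetostat and 22.6, 25.1 and 23.7 CPM with valemetostat. All 6 inhibitor libraries were below all DMSO libraries. Over all genes, 47.4% did not overlap DMSO in CPM with tazemetostat and 48.5% with valemetostat. Ring1 fell by 0.25 ± 0.07 on the log2 scale with tazemetostat (edgeR adjusted p = 0.00866). The valemetostat value of -0.12 ± 0.07 did not pass (edgeR adjusted p = 0.211). The ratio of Rnf2 to Ring1 TPM was 2.38, 2.75 and 3.42 in DMSO, 4.44, 3.8 and 3.85 with tazemetostat and 3.93, 3.64 and 3.55 with valemetostat. The log2 ratio rose by 0.45 between DMSO and inhibitor libraries, and by 0.59 and 0.33 without DMSO 3 and DMSO 1.

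The ratios of the 3 paralog pairs did not overlap between the 6 inhibitor and the 3 DMSO libraries. The share of other gene pairs that separate in this way was not taken. For Rnf2 over Ring1 the gap was small, between log2 ratios of 1.77 in DMSO 3 and 1.83 in valemetostat 3. A two-sided exact permutation test gave p = 0.0238 for each pair (adjusted p = 0.0238 over the 3 pairs), which is the smallest p that 6 against 3 libraries can give. The inhibitor libraries were pooled for this test because 3 against 3 could not go below 0.1. Ratios that do not overlap always give this p, so it restates that separation and adds no evidence to it. Leaving out any 1 DMSO library gave an adjusted p of 0.0714 in that exact permutation test, the smallest that 6 against 2 allow. In the first pair Bmi1 rose, in the second Pcgf5 rose, and in the third Ring1 fell with tazemetostat while Rnf2 rose by a small amount.

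**Figure D4:**
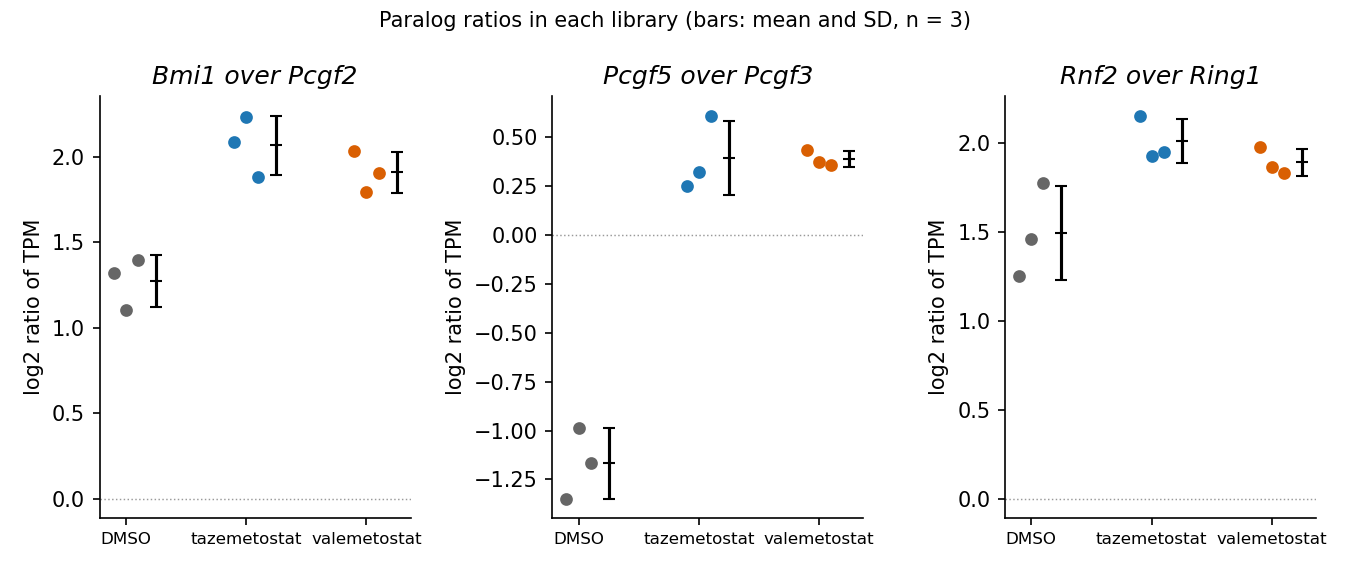
Log2 ratio of TPM for Bmi1 over Pcgf2, Pcgf5 over Pcgf3 and Rnf2 over Ring1 in each library, with mean and SD per group; each panel has its own axis and the dotted line marks equal levels. The inhibitor libraries lie above the DMSO libraries in all 3 panels, and Pcgf5 over Pcgf3 goes from a mean of -1.17 to 0.39 with either compound.

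The 2 compounds were compared directly for the 10 members, with p-values adjusted over all 12580 genes. None was called by edgeR, against 0.318% of all genes. Kdm2b and Rybp had an unadjusted edgeR p under 0.05, and DESeq2 called 1 member (Rybp). Shares over all genes are not given for these 2 measures, so nothing particular to the members is read from them. Rybp was lower with valemetostat than with tazemetostat by a log2 difference of -0.21 ± 0.05 (95% interval -0.32 to -0.11, edgeR adjusted p = 0.0679). All 3 valemetostat libraries were below all 3 tazemetostat libraries in CPM. The share of all genes that separate between the compounds in this way was not taken. The difference passed with DESeq2 (adjusted p = 0.0165), with no filter on counts (edgeR adjusted p = 0.018), with the 2 inhibitor groups alone (0.0426) and with the length and GC offset (0.0136). In the other 14 of 18 settings it did not pass. Among those were all 9 that left out 1 library (edgeR adjusted p from 0.05 to 0.507). For Pcgf5 valemetostat minus tazemetostat was 0.03 (interval -0.18 to 0.23), for Bmi1 0.01 (-0.10 to 0.13) and for Pcgf6 0.06 (-0.07 to 0.18) on the log2 scale. For Ring1 it was 0.13 (-0.02 to 0.29), for Rnf2 -0.02 (-0.12 to 0.08) and for Kdm2b -0.09 (-0.17 to -0.01). For Pcgf1, Pcgf2 and Pcgf3 it was 0.17 (-0.08 to 0.42), 0.14 (-0.04 to 0.33) and 0.01 (-0.12 to 0.14). A p that misses the threshold does not show that the compounds act alike. Both were compared with the same DMSO libraries, so their changes against DMSO are not independent.

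Of 38 further PRC1 genes and H2AK119 deubiquitinases 35 passed the filter on counts. With tazemetostat 6 rose and 11 fell, and with valemetostat 5 rose and 15 fell, with list medians of -0.08 and -0.10 on the log2 scale. Over all genes 38.1% and 39.2% were called, 19.9% and 20.5% higher and 18.2% and 18.7% lower. On log2(TPM + 1) values 11 and 13 were called, for which the share over all genes is not given here. Called with both compounds were 14 genes, all in the same direction with each, against 31.3% of all tested genes called in the same direction with both. The plot of these partner genes gives their changes.

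**Figure D5:**
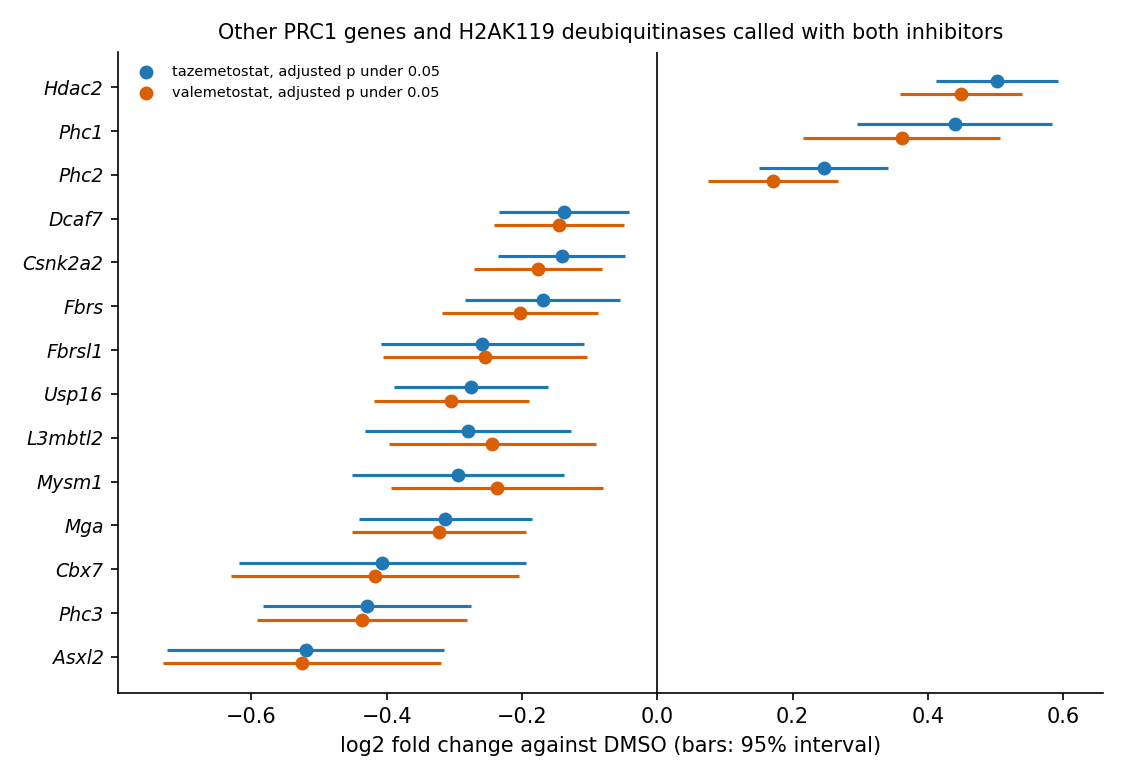
Log2 fold change against DMSO with its 95% interval for the 14 further PRC1 genes and H2AK119 deubiquitinases that passed the edgeR test with both compounds. Hdac2, Phc1 and Phc2 are higher, and the other 11 genes are lower, down to -0.52 and -0.53 for Asxl2.

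Partners of canonical PRC1 split within their own families. Phc1 and Phc2, polyhomeotic subunits that let PRC1 polymerise, rose by 0.44 ± 0.07 and 0.25 ± 0.05 on the log2 scale with tazemetostat and by 0.36 ± 0.07 and 0.17 ± 0.05 with valemetostat. The third polyhomeotic gene, Phc3, fell by 0.43 ± 0.07 and by 0.44 ± 0.08, and was at -0.26 and -0.22 with the length and GC offset, still called. Cbx7, a reader of the H3K27 mark, went from 22.2 ± 3.54 CPM to 16.8 ± 1.61 and 16.6 ± 0.860 CPM, at -0.41 ± 0.10 and -0.42 ± 0.10, and its tazemetostat libraries overlapped DMSO. The edgeR adjusted p of these 8 values were at most 0.00478. The calls of Cbx7 and Phc3 with both compounds, and of Phc1 and Phc2 with valemetostat, did not hold in limma-trend on log2(TPM + 1) (adjusted p from 0.0644 to 0.335). Cbx2 and Cbx6 did not pass with either compound, and Cbx8 rose with valemetostat at 0.32 ± 0.10 (edgeR adjusted p = 0.0158). Its valemetostat libraries, at 22.2 to 28.7 CPM, overlapped DMSO at 18.0 to 23.3 CPM, and they overlapped in TPM as well. For partner genes called with 1 compound only, alternative settings are not given gene by gene.

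Grouped by complex, a grouping made after the values were seen, the 11 genes of PRC1.6 included 3 that fell with both compounds, namely Pcgf6, Mga and L3mbtl2. Hdac2 was the 1 that rose with both, and 31.3% of all genes were called in the same direction with both. Cbx3, a heterochromatin protein, rose with tazemetostat (0.18 ± 0.04, edgeR adjusted p = 0.00174), and Max, the partner of MGA, fell with valemetostat (-0.15 ± 0.06, edgeR adjusted p = 0.0301). Mga, the DNA-binding scaffold of PRC1.6, went from 114.5 ± 7.33 CPM to 92.1 ± 9.24 and 91.6 ± 2.91 CPM, at -0.31 ± 0.06 and -0.32 ± 0.06 (edgeR adjusted p = 0.000285 and 0.000207). With the length and GC offset it was at -0.10 and -0.06 and was not called (edgeR adjusted p = 0.0511 and 0.324). L3mbtl2, an MBT domain protein, changed by -0.28 ± 0.07 and -0.24 ± 0.07 (edgeR adjusted p = 0.00402 and 0.0105). The valemetostat call of L3mbtl2 did not hold without DMSO 2 (edgeR adjusted p = 0.0543), valemetostat 2 (0.0566) or valemetostat 3 (0.0888). Hdac2, a deacetylase found in PRC1.6 and in other complexes, rose by 0.50 ± 0.04 and 0.45 ± 0.04. Their partners E2f6, Tfdp1, Hdac1 and Wdr5 did not pass with either compound.

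Of 8 tested genes of PRC1.3 and PRC1.5, Pcgf5 was the 1 that rose with both compounds, and Fbrs, Fbrsl1, Dcaf7 and Csnk2a2 fell with both, by 0.14 to 0.26 on the log2 scale, against 31.3% of all genes called in the same direction with both. Subunits of casein kinase 2 also differed with 1 compound each, Csnk2b higher with tazemetostat (0.16 ± 0.05, edgeR adjusted p = 0.0223) and Csnk2a1 lower with valemetostat (-0.15 ± 0.04, edgeR adjusted p = 0.00718). The tazemetostat libraries of Csnk2b overlapped DMSO in CPM. Fbrsl1 changed by -0.26 ± 0.07 with each (edgeR adjusted p = 0.00656 and 0.00706), and its valemetostat call was lost without valemetostat 2 (0.0742). With tazemetostat the calls of Fbrs and Dcaf7 were lost without DMSO 1 (edgeR adjusted p = 0.0978 and 0.0592), DMSO 2 (0.0695 and 0.0682) or tazemetostat 3 (0.107 and 0.164), and that of Csnk2a2 without tazemetostat 3 (0.156). With valemetostat the call of Dcaf7 was lost in 4 of 9 such fits, without DMSO 1, DMSO 2, valemetostat 1 or valemetostat 2 (edgeR adjusted p from 0.0501 to 0.0967). The length and GC offset ended the calls of Dcaf7 and Csnk2a2 with both compounds, and log2(TPM + 1) values that of Fbrs with tazemetostat (limma-trend adjusted p = 0.128). Auts2, the activating partner of PCGF5 in neurons, had 0 counts in all 9 libraries. In PRC1.1, Pcgf1 and Bcorl1 did not pass with either compound, Bcor rose with tazemetostat (0.16 ± 0.05), and Usp7 fell and Skp1 rose with valemetostat (-0.17 ± 0.05 and 0.15 ± 0.05). In CPM the tazemetostat libraries of Bcor and the valemetostat libraries of Skp1 overlapped DMSO.

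Of 5 tested genes of the H2A deubiquitinases, which remove the PRC1 mark, 3 fell with tazemetostat and 4 with valemetostat, and none was called higher. Over all genes 18.2% and 18.7% were called lower. Asxl1, the gene called with valemetostat alone, was at -0.09 ± 0.05 and -0.19 ± 0.05 (edgeR adjusted p = 0.16 and 0.00254). Asxl2, a cofactor of the deubiquitinase BAP1, went from 44.6 ± 4.93 CPM to 31 ± 4.15 and 30.95 ± 3.11 CPM, at -0.52 ± 0.10 and -0.53 ± 0.10 (edgeR adjusted p = 0.000318 and 0.000286). With the length and GC offset Asxl2 was at -0.34 and -0.29, still called. Usp16 changed by -0.28 ± 0.06 and -0.30 ± 0.06, and Mysm1 by -0.29 ± 0.08 and -0.24 ± 0.08. Asxl2, Usp16 and Mysm1 missed the threshold on log2(TPM + 1) values with both compounds (limma-trend adjusted p from 0.0568 to 0.348). With the length and GC offset Mysm1 was at -0.19 and -0.10. With valemetostat the Mysm1 call was also lost with that offset (edgeR adjusted p = 0.293), without DMSO 2 (0.117) and without valemetostat 2 (0.0525). Bap1 itself did not pass (edgeR adjusted p = 0.119 and 0.0545).

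Over all genes, log2 changes were lower for longer transcripts. Across genes, which are not independent replicates, Spearman's rho of change on length was -0.36 for tazemetostat and -0.42 for valemetostat (at least 3 log2 CPM, changes under 2-fold). Among the members, Pcgf5 has a longest transcript of 6443 nt, against a median of 3240.5 nt over tested genes, and rose. Bmi1 (3594 nt) and Rnf2 (3201 nt) are close to that median, and Pcgf6 (2832 nt) and Ring1 (2552 nt), both under it, were lower. Rybp (4503 nt) and Pcgf2 (2485 nt) kept their side of the threshold against DMSO with a length and GC offset. Kdm2b (5180 nt) went from -0.11 to -0.05 with valemetostat with that offset, Pcgf1 (918 nt) from 0.23 to 0.05 and Pcgf3 (7708 nt) from 0.01 to 0.15. With tazemetostat that offset moved Kdm2b from -0.02 to 0.03, Pcgf1 from 0.06 to -0.10 and Pcgf3 from 0.00 to 0.11. With the length and GC offset Pcgf5 was at 1.83 and 1.88, Bmi1 at 0.70 and 0.72 and Pcgf6 at -0.39 and -0.33 on the log2 scale, all still called.

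The genes nearest to Pcgf5 and Bmi1 in their profile over the 9 libraries were found among 10063 genes, by the root mean square difference of log2 CPM centred on each gene's own mean. For Pcgf5 they were Tnfsf8, Arhgef3, Kdm5b, Cdon and Ptgs1, with differences of 0.115 to 0.139. Tnfsf8, the ligand of CD30, changed by 1.69 and 1.87 on the log2 scale with tazemetostat and valemetostat, and Kdm5b, an H3K4 demethylase, by 1.63 and 1.61. For Bmi1 they were Nrep, Rfk, Stau2, Abhd5 and Hsd17b11, with differences of 0.044 to 0.067. Nrep changed by 0.76 and 0.72 and Rfk, riboflavin kinase, by 0.68 and 0.64.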

How the data were processed

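RNA-seq of 9 libraries, 3 per group, was analysed from 2 tables. The authors deposited whole-number counts per gene and library, and log2 values that are log2(TPM + 1), since raising 2 to them and subtracting 1 gives whole hundredths in 100% of values (tolerance 1e-06). Per the submitters' processing notes, reads were placed on mm9. The aligner, counting program, strand setting and annotation were not given in the sources used here. Counts were tested with edgeR 4.0.16 in R 4.3.3 on all 9 libraries in 1 fit by its quasi-likelihood F test (TMM scaling, robust). The filterByExpr filter (minimum count 10, minimum total 15) kept 12580 genes, and p-values were Benjamini-Hochberg adjusted over all of them. Intervals are 95%. CPM are TMM-scaled. Errors of log2 changes are standard errors, taken as the change over the square root of F.

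On simulated counts for tazemetostat minus DMSO over 12394 genes, 50 genes were changed at each fold. The fit recovered 54% of genes changed 1.25-fold, 75.5% at 1.5-fold and 91.8% at 2-fold, and called 0.107% of the others. So few changed genes are a far smaller share than the 38.1% called in the real data. The adjusted threshold depends on that share, so these rates need not hold for the tests reported here. Library totals of 34080504 to 46675110 counts set the precision, and floors cover counting error only. Ratios of TPM were tested by exact permutation in SciPy 1.17.1. Members, lists and tests were chosen with earlier results of these data known. All 10 members are named, and partner genes called with both compounds; others are named for their complex after their values were seen. Likeness used genes of at least 1 log2 CPM with a prior count of 2. Transcript lengths and exon overlaps came from GENCODE M21, which is on another build. The symbol Skp1a was matched to Skp1. Alternatives were DESeq2 1.42.0, other scalings and filters, limma-trend (limma 3.58.1) on the deposited log2 values, a replicate term, the compared groups alone, a length and GC offset (splines with 5 degrees of freedom) and leaving out each library. Replicate pairs all differed by more than sampling noise (chi-square over degrees of freedom 5.21 to 12.95).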

Additional observations from a re-analysis of the deposited data

How the results depend on the processing

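Pcgf5, Bmi1 and Pcgf6 kept their direction and their call with both compounds under all 18 alternatives, from 1.38 to 1.90, 0.62 to 0.77 and -0.41 to -0.25 on the log2 scale, as did Ring1 with tazemetostat (-0.36 to -0.22). The count of members called with valemetostat fell from 5 to 3 with no filter on counts, on log2(TPM + 1) values, with the replicate block and with the compared groups alone, as Kdm2b and Rnf2 were lost there. Leaving out single libraries gave 3 to 5 members with valemetostat, 4 to 6 with tazemetostat, 3 to 5 for the mean of both (3 without DMSO 1) and 0 between the compounds. Between the compounds 1 member was called with DESeq2, no filter, the compared groups alone or the length and GC offset. Partner genes called went from 17 to 11 with tazemetostat and from 20 to 13 with valemetostat on log2(TPM + 1) values. Without single libraries they ran from 13 to 18 and from 13 to 20 (13 without DMSO 2). Shares of all genes called under these alternatives are not given here, so the changed counts are not read as particular to the members or partners. The cause was not tested.

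The canonical to variant difference of 0.48 moved to 0.67 without Pcgf5, and to 0.46 to 0.52 without single libraries. The paralog differences ran from 0.63 to 0.78 for Bmi1 over Pcgf2, from 1.47 to 1.65 for Pcgf5 over Pcgf3 and from 0.33 to 0.59 for Rnf2 over Ring1 without single libraries. Their adjusted p reached 0.0714 without any 1 DMSO library, the smallest that 6 against 2 libraries can give. Paired by replicate block they were 0.71, 1.56 and 0.45, with adjusted p = 0.25, the smallest that 3 numbers can give by exact sign flips. Whether the numbers pair the libraries is not in the labels. Same-numbered libraries had correlations of deviations from -0.22 to 0.24, and differently numbered ones from -0.33 to 0.28. With deviations taken from means of 3 libraries, these values cannot settle whether the libraries are paired. The block left 6 members called with tazemetostat and took those called with valemetostat from 5 to 3. Kdm2b and Rnf2 were lost there (edgeR adjusted p = 0.0632 and 0.0749). Not every library correlated best with its own number.

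Signs turned only for values that had not passed. With tazemetostat Pcgf1 was at -0.017 on log2(TPM + 1) values and at -0.10 with the length and GC offset, Kdm2b at 0.03 with that offset and Pcgf3 at -0.023 with library totals. With valemetostat Pcgf3 was at -0.004 with library totals. Between the compounds Rnf2 was at 0.012 on log2(TPM + 1) values. Without single libraries Pcgf1 ran from -0.013 to 0.132 and Pcgf3 from -0.044 to 0.047 with tazemetostat, and Pcgf3 from -0.021 to 0.058 with valemetostat. Between the compounds Bmi1 ran from -0.021 to 0.056, Pcgf3 from -0.019 to 0.059, Pcgf5 from -0.033 to 0.083 and Rnf2 from -0.051 to 0.009.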
